A study of Homo sapiens with 21 samples.

Results

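The genes described are the human matrix metalloproteinases (MMP), the ADAM proteases, the ADAMTS proteases with their ADAMTSL relatives, and the tissue inhibitors of metalloproteinases (TIMP), in SK-N-BE(2) neuroblastoma cells silenced for the chromatin remodelling subunits ARID1A and ARID1B. They were chosen by name: every protein-coding gene whose symbol is one of these family names followed by a number and at most 1 letter. The rule found 71 of 60728 gene identifiers, namely 23 MMP, 20 ADAM, 19 ADAMTS, 5 ADAMTSL and 4 TIMP genes. Of these, 50 had a mean of 5 or more over all libraries and were tested (13 MMP, 14 ADAM, 15 ADAMTS, 5 ADAMTSL and 3 TIMP genes). The other 21 were left out, and 9 of them were listed at 0 in every library, among them TIMP4, MMP7 and MMP8. The genes nearest to the threshold were MMP21 and ADAM20 outside it, with means of 2.08 and 3.66, and MMP9 and MMP12 inside it, with means of 5.96 and 6.84. ADAMTS20 was among the genes left out.

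Metalloproteinases hold a zinc ion in the catalytic site and act at the cell surface or outside the cell. MMPs cleave collagens and other matrix proteins, ADAMs are membrane proteins of which many release the outer part of other membrane proteins (shedding), and ADAMTS enzymes are secreted and cut procollagens and the large proteoglycans of the matrix, versican and aggrecan. ADAMTSL proteins share the ancillary domains of ADAMTS enzymes but have no protease domain. TIMPs bind the active site of these enzymes and block it, and TIMP2 in addition takes part in the activation of pro-MMP2 by MMP14 at the cell membrane. Matrix cleavage is a step in the invasion of neighbouring tissue by tumour cells.

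The line SK-N-BE(2) was established from a human neuroblastoma and carries amplified MYCN. The cells were transduced with lentiviral particles carrying short hairpin RNAs (shRNA), and polyadenylated RNA was sequenced 72 h later from 7 conditions with 3 libraries each, which the series describes as biological triplicates. The conditions are Control, a non-silencing shRNA, and 6 silenced conditions in 3 labels: shARID1A.2 and shARID1A.4, shARID1B.2 and shARID1B.3, and shARID1A/B.2.3 and shARID1A/B.4.2. All conditions carry a lentiviral vector, and p-values measure the spread between the 3 libraries of a condition in 1 cell line. Each deposited value is a read number scaled by the size factor of its library.

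The targeted genes were examined first, since they do not follow the labels. The value of ARID1A was 6097, 6374 and 6463 in the Control libraries, 2169, 2160 and 2109 in shARID1A.2 and 2289, 2157 and 2284 in shARID1A.4. For shARID1B.2 the values were 1962, 1882 and 1916, and the remaining conditions had 2507, 2480 and 2450 in shARID1B.3, 5510, 5752 and 5714 in shARID1A/B.2.3 and 5589, 5352 and 5379 in shARID1A/B.4.2. ARID1A was thus low in the libraries labelled shARID1A and shARID1B and close to Control in the others. The Control libraries had ARID1B at 5793, 5804 and 5791, with 2252, 2248 and 2224 in shARID1A.2 and 3065, 3110 and 3126 in shARID1A.4. Its values were 5056, 4913 and 5043 in shARID1B.2, 6182, 6038 and 6053 in shARID1B.3, 2540, 2651 and 2607 in shARID1A/B.2.3 and 1886, 1881 and 1955 in shARID1A/B.4.2. The libraries labelled shARID1A therefore had both transcripts low, those labelled shARID1B had ARID1A low, and those labelled shARID1A/B had ARID1B low. Labels are used as written throughout.

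The libraries held 27954334 to 41077638 reads, with a median of 34973565. All 7 adrenergic neuroblastoma markers examined were present in every library, for example GATA3 at 7302 to 11433. Of 8 fibroblast markers, PRRX1 was at 0 to 2.99 and COL1A2 at 1.0 to 24.7, whereas LUM, PDGFRB, COL1A1, THY1, COL3A1 and DCN were expressed. The summed level of this list was 43146 to 43637 in Control, 38796 to 40379 in shARID1B.2, 32331 to 34094 in shARID1B.3, 26215 to 28373 in shARID1A/B.4.2, 21422 to 21731 in shARID1A/B.2.3, 19051 to 20371 in shARID1A.2 and 14580 to 14784 in shARID1A.4. The 3 endothelial markers summed to 3.4 to 14.1 in Control, 33.2 to 55.7 in shARID1A.2, 44.0 to 58.1 in shARID1A/B.4.2 and 0 to 12.7 in the other silenced libraries. In shARID1A.2 and shARID1A/B.4.2 most of the sum was KDR, since CDH5 and PECAM1 did not exceed 13.1 and 2.81 in any library. The 3 leukocyte markers summed to 418.1 to 450.9 in Control, 311.7 to 329.7 in shARID1B.3, 193.1 to 213.5 in shARID1A/B.4.2 and 61.2 to 127.7 in the others, with CD3E at 0 to 8.5. The part of these marker levels in the results below was not tested. In bulk RNA, fewer cells of a kind and less RNA per cell cannot be told apart.

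In the Control libraries, levels per kilobase of annotated exon differed over a wide range. MMP2, a gelatinase, had the highest level of the 50 genes (7238 ± 37.7 per kb, SD, n = 3), followed by TIMP2 (3550 ± 67.1), TIMP1 (1321 ± 16.6), ADAM12 (1116 ± 10.7), MMP14 (1096 ± 32.6) and ADAMTS9 (1019 ± 3.89). The values of ADAM12 and MMP14 differed by less than the SD of MMP14. At the other end, MMP9 (0.314 ± 0.274) and ADAM28 (0.226 ± 0.22) had a few reads at most. A Control mean under 5 was found for 6 of the kept genes, namely ADAM21, ADAM28, ADAMTS16, ADAMTSL5, MMP12 and MMP9, so they could enter the test only through silenced libraries in which they are higher.

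Promoters, taken from RefSeq (GRCh38.p14) as 250 bases before to 50 bases after the gene start, were found for 31 of the 50 genes. The GC box letters GGGCGG, searched on both strands, were found for 26 of the 31 genes (83.9%), a gene being counted if any of its promoters matched. Of 35116 promoters of the same length, counted singly and with no filter on expression, 45% held them. The shares are thus of unlike units and sets. Counted in the same way, the AP-1 letters TGANTCA were found for 1 gene (3.2% against 7.7%), MMP10, and the letters TATAAA for 4 (12.9% against 11.5%). The promoters of TIMP3, MMP14 and ADAM12 are shown as examples with a GC box. They come from 8 genes lower than Control in all 6 silenced conditions at an adjusted p-value under 0.05 from limma. The share of all genes tested that were lower in all 6 was not computed. Of the rest of these 8 genes, MMP11 was also among the 26. ADAMTS9, ADAM9, MMP16 and ADAMTS5 were not, for want of a match or of a promoter. The examples therefore do not stand for the genes that fell. That of MMP10 is shown because it holds both other motifs. Capitals mark the GC box on either strand in the first 3, and the AP-1 and TATA letters, in this order, in MMP10.
TIMP3, chr22:32801455-32801754, plus strand: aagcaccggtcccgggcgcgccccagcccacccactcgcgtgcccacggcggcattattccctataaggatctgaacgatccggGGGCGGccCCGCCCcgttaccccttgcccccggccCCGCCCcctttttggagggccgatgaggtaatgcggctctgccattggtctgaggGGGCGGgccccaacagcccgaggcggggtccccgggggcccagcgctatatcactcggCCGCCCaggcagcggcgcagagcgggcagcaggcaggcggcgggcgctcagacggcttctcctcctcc
MMP14, chr14:22836335-22836634, plus strand: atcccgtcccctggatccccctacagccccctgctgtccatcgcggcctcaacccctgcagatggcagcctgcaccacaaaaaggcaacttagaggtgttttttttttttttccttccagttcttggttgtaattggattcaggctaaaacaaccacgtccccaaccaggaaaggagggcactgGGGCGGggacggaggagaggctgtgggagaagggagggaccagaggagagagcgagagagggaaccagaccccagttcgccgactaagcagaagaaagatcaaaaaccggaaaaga
ADAM12, chr10:126388428-126388727, minus strand: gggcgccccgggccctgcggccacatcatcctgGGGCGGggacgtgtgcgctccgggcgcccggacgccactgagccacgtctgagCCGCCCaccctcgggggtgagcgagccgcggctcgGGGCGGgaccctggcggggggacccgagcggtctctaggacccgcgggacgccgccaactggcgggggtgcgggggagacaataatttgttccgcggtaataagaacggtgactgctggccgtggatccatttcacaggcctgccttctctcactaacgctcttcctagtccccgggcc
MMP10, chr11:102780579-102780878, minus strand: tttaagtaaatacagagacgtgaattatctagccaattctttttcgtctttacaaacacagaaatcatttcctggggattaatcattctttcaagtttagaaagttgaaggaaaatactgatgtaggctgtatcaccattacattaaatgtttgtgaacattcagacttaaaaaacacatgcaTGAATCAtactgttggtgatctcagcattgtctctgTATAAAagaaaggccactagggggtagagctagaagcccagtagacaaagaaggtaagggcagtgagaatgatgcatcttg
In MMP14 the GC box starts 66 bases before the gene start (position -66), and in MMP10 the AP-1 letters start at -67 and the TATA letters at -31. These matches describe the letters of the window and no binding was measured in these libraries.

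Each silenced condition was set against Control to see how the family responded. A gene is called modulated when its log2 fold change on the scale of the value plus 1 is above 1 or below -1 with an adjusted p-value under 0.05 from limma, and passing means the adjusted p-value alone. In shARID1A.2, 17 of the 50 genes were modulated, 6 higher and 11 lower, where 24.5% of all 18615 genes tested were modulated (13.8% higher and 10.7% lower). In shARID1A.4 the count was 16, with 4 higher and 12 lower (21.3% of all genes, 9.31% higher and 12% lower). The libraries labelled shARID1B had 11 modulated genes in shARID1B.2, 6 higher and 5 lower (11.6% of all genes, 6.61% higher and 5.03% lower), and 14 in shARID1B.3, 5 higher and 9 lower (11.7%, 5.18% higher and 6.53% lower). In shARID1A/B.2.3 there were 12, with 3 higher and 9 lower (16%, 6.98% higher and 9.01% lower), and in shARID1A/B.4.2 there were 17, with 8 higher and 9 lower (18%, 9.98% higher and 8.07% lower). Of the genes modulated higher, 5, 3, 5, 4, 1 and 5 in this order of conditions had a Control mean under 5. Such genes could pass the filter only through silenced libraries in which they are higher, so the counts of rises partly follow from the filter. The shares of all genes rest on the same filter. The 6 comparisons share the 3 Control libraries.

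By the adjusted p-value alone, with no limit on the size of the change, falls outnumbered rises among the 50 genes in each condition with the deposited scaling. In shARID1A.2, 10 passed higher and 24 lower (75.6% of all genes passed, 37.6% higher and 38.1% lower), and in shARID1A.4, 10 and 28 (73.5%, 37% higher and 36.5% lower). In shARID1B.2 the counts were 15 and 21 (65.1%, 31.3% higher and 33.9% lower) and in shARID1B.3 16 and 27 (63.7%, 31.8% higher and 31.9% lower). In shARID1A/B.2.3 they were 15 and 25 (69%, 35.1% higher and 33.9% lower) and in shARID1A/B.4.2 15 and 27 (70.7%, 34.8% higher and 36% lower). Scaling to total reads gave 20 higher and 19 lower in shARID1B.2 (42.2% and 24.8% of all genes), so that falls no longer outnumbered rises there. With that scaling the counts were 14 and 24 in shARID1A.2 (46.9% and 29.9%) and 17 and 21 in shARID1A/B.4.2 (47.6% and 25.9%), and the modulated genes of shARID1A/B.4.2 were 8 higher and 4 lower (13.7% and 5.84%). The genes lower in all 6 conditions with either scaling included TIMP3, MMP14, ADAM9, ADAM12 and ADAMTS9, and those higher in all 6 ADAM32 and ADAMTS17.

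The median log2 fold change of the 50 genes was -0.33 in shARID1A.2, -0.44 in shARID1A.4, -0.14 in shARID1B.2, -0.23 in shARID1B.3, -0.23 in shARID1A/B.2.3 and -0.28 in shARID1A/B.4.2, where the median of all genes tested was 0.01 to 0.02. Scaling to total reads moved the median of all genes by 0.17 in shARID1A.2, 0.13 in shARID1B.2 and 0.18 in shARID1A/B.4.2, and the medians of the 50 genes became -0.16, -0.00 and -0.12 in these conditions. By family, the ADAMTS genes had medians of -0.83, -0.68, -0.47, -0.83, -0.62 and -0.24 in the order of conditions above, and the MMP genes -0.09, -0.25, -0.27, -0.19, -0.21 and -0.15.

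**Figure D1:**
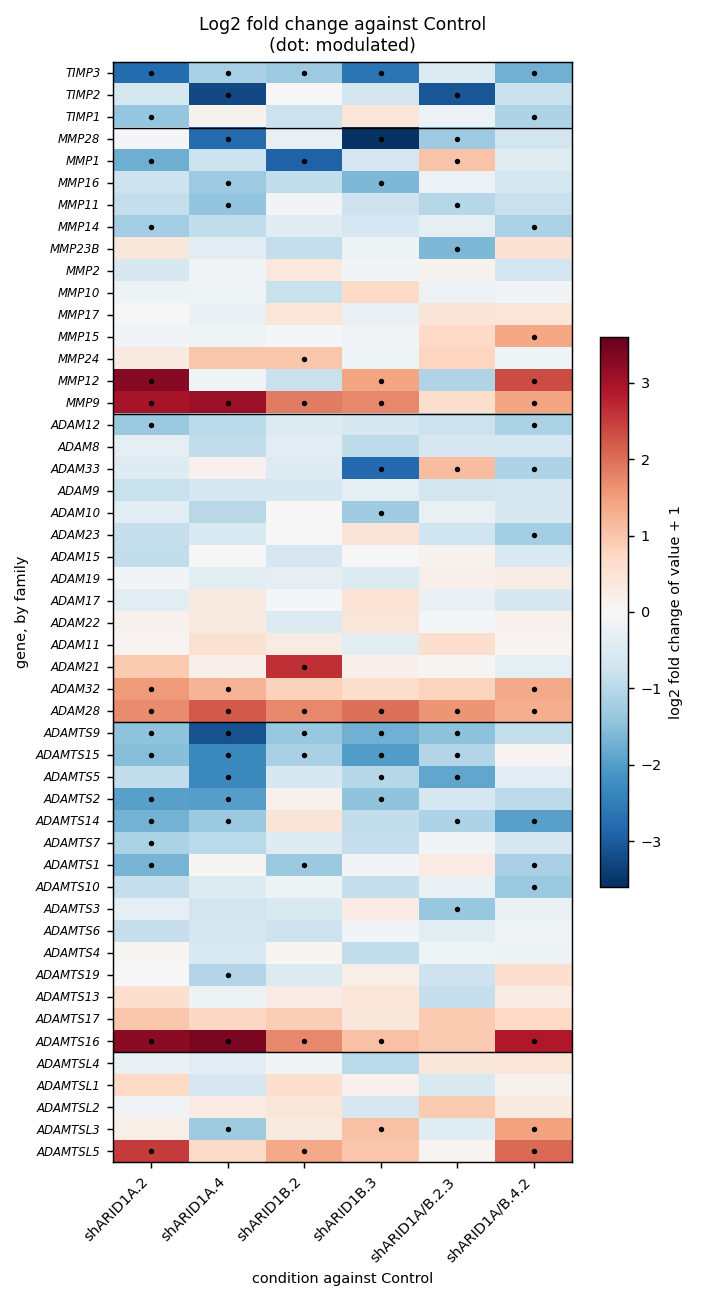
Log2 fold change of the value plus 1 against Control (colour, red higher and blue lower) for the 50 genes (rows, by family and then by mean change) in the 6 silenced conditions (columns), with a dot where the gene was modulated. MMP28, TIMP2 and ADAMTS9 reach the darkest blue fields (down to -3.56 for MMP28 in shARID1B.3), and MMP9, MMP12 and ADAMTS16, which had few reads in Control, the darkest red ones.

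The inhibitors were lower in most conditions, each with a profile of its own over the shRNAs. TIMP2 fell by more than 3 on the log2 scale in shARID1A.4 and shARID1A/B.2.3, TIMP3 fell in all 6 conditions, and TIMP1 fell in 4 and rose in 2. TIMP2 (chromosome 17, 78852977 to 78925387, minus strand, GRCh38) had values of 20032, 19600 and 20354 in Control, 12598, 12922 and 13038 in shARID1A.2 and 2093, 2140 and 2119 in shARID1A.4. In shARID1B.2 they were 20439, 20050 and 20058, in shARID1B.3 12647, 12285 and 12637, in shARID1A/B.2.3 2325, 2393 and 2439 and in shARID1A/B.4.2 11680, 11229 and 11296. The groups did not overlap with Control except in shARID1B.2. Its log2 fold changes were -3.24 (standard error 0.02, adjusted p = 7.11e-32) in shARID1A.4 and -3.07 (adjusted p = 2.53e-31) in shARID1A/B.2.3. They were -0.64, -0.67 and -0.81 in shARID1A.2, shARID1B.3 and shARID1A/B.4.2, and 0.01 (adjusted p = 0.621) in shARID1B.2, where scaling to total reads gave 0.15 (adjusted p = 8.28e-07). The 2 conditions with the lowest TIMP2 carry different labels: both transcripts are low in one and ARID1B in the other. They also had the highest summed level of the adrenergic markers, at 449834 to 467218 in shARID1A.4 and 254382 to 260144 in shARID1A/B.2.3. All other libraries had 113038 to 209851. Most of this sum is MYCN, at 77312 to 426870 over all libraries, where no other marker summed exceeded 19481. The sum therefore does not describe the adrenergic markers as a set, and its part in the result was not tested.

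TIMP3 (chromosome 22, 32801701 to 32863043, plus strand), which is bound to the matrix and inhibits ADAM17 and aggrecan-cleaving ADAMTS enzymes as well as MMPs, had values of 653, 619 and 645 in Control. It was at 87.2, 104 and 85.8 in shARID1A.2, 278, 300 and 275 in shARID1A.4, 224, 258 and 291 in shARID1B.2 and 102, 96.9 and 111 in shARID1B.3. The values were 456, 445 and 451 in shARID1A/B.2.3 and 181, 195 and 196 in shARID1A/B.4.2. Every silenced library was below every Control library. The log2 fold changes were -2.78 (standard error 0.09, adjusted p = 2.15e-19), -1.17, -1.31, -2.62, -0.50 and -1.74 in the order of conditions above. TIMP3 overlaps SYN3 on the opposite strand, which had a mean of 66.5, and the strand setting of the counting is not given in the sources used here.

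TIMP1 (chromosome X, 47582313 to 47586789, plus strand), a secreted inhibitor of most soluble MMPs, was at 2054, 2007 and 2047 in Control, 784, 730 and 802 in shARID1A.2 and 2189, 2307 and 2142 in shARID1A.4. The libraries of shARID1B.2 had 1194, 1156 and 1200, those of shARID1B.3 2574, 2945 and 2757, those of shARID1A/B.2.3 1662, 1706 and 1903 and those of shARID1A/B.4.2 916, 979 and 915. In each label, 1 condition was clearly below Control and the other less so or above it. The log2 fold changes were -1.40 (standard error 0.05, adjusted p = 2.22e-18), 0.12 (adjusted p = 0.0332), -0.78, 0.44, -0.22 and -1.12. The small rise in shARID1A.4 did not pass without any 1 of the Control libraries or without shARID1A.4 replicate 2, at 0.09 to 0.13. TIMP1 overlaps SYN1 on the opposite strand.

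**Figure D2:**
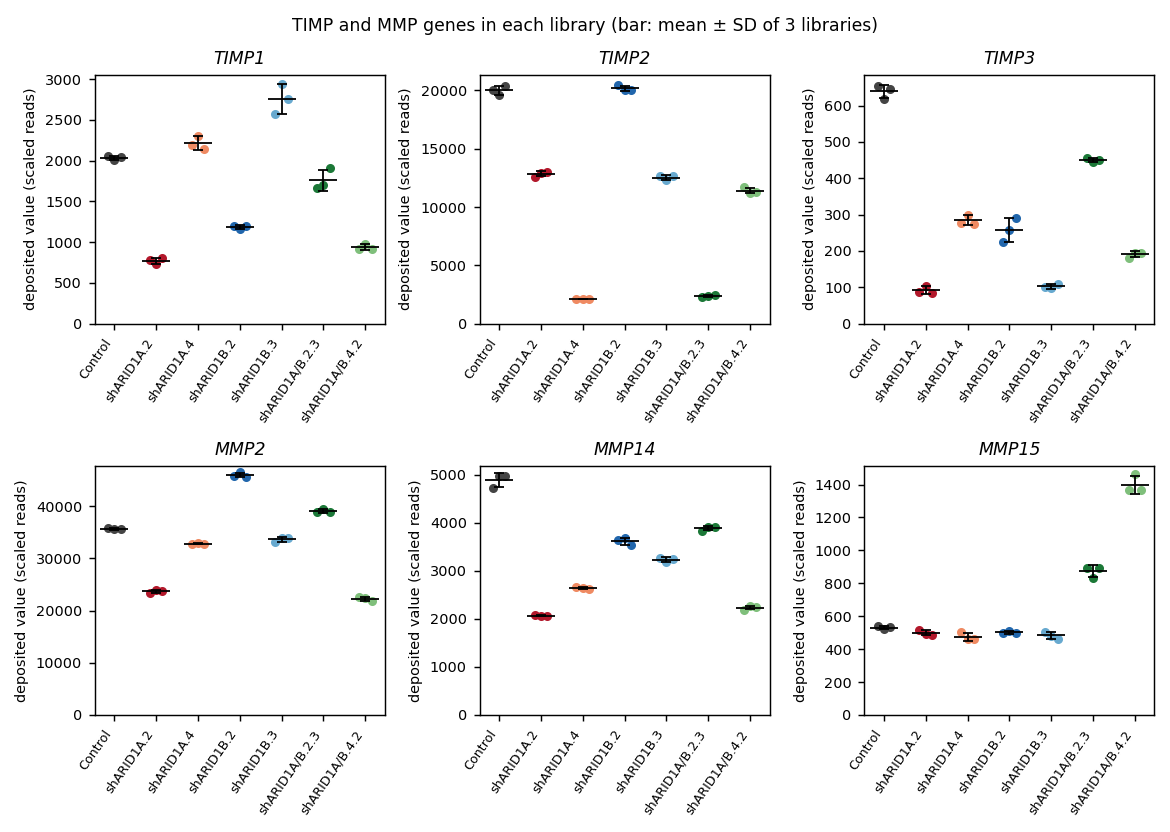
Deposited value (reads divided by the size factor of the library, linear axes from 0) of TIMP1, TIMP2, TIMP3, MMP2, MMP14 and MMP15 in each of the 3 libraries of the 7 conditions, with the mean and SD as bars. TIMP2 is at 2093 to 2439 in shARID1A.4 and shARID1A/B.2.3 and at 11229 or more elsewhere, and MMP15 is at 835 or more only in the conditions labelled shARID1A/B.

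The gelatinase MMP2, which cleaves denatured collagen and type IV collagen, had a smaller fold change than its inhibitor TIMP2 in shARID1A.4, shARID1B.3 and shARID1A/B.2.3 and a larger one in shARID1B.2. Its value was 35559 to 35915 in Control, 23422 to 23950 in shARID1A.2, 32672 to 32895 in shARID1A.4, 45678 to 46511 in shARID1B.2, 33107 to 33949 in shARID1B.3, 38903 to 39423 in shARID1A/B.2.3 and 21853 to 22642 in shARID1A/B.4.2. The groups did not overlap with Control, and the log2 fold changes were -0.59, -0.12, 0.37, -0.09, 0.13 and -0.68, all of which passed. The ratio of MMP2 to TIMP2, each per kilobase, was 2.04 ± 0.037 (SD, n = 3) in Control and 17.7 ± 0.198 in shARID1A.4 and 18.7 ± 0.453 in shARID1A/B.2.3. It was 2.11 ± 0.022 in shARID1A.2, 2.6 ± 0.043 in shARID1B.2, 3.07 ± 0.084 in shARID1B.3 and 2.23 ± 0.036 in shARID1A/B.4.2. The ratio describes transcripts, and neither protein was measured here.

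**Figure D3:**
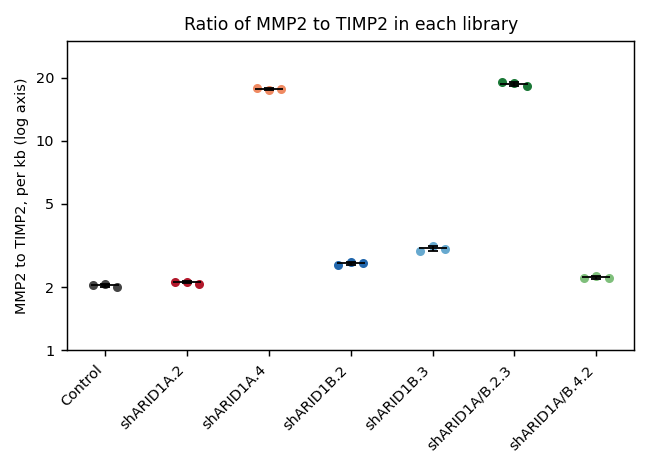
Ratio of the MMP2 to the TIMP2 value, each divided by its annotated exon length in kilobases, in each library (points, log axis), with mean and SD of the 3 libraries as bars. The libraries of shARID1A.4 and shARID1A/B.2.3 lie at 17.5 to 19.1 and all other libraries at 2.0 to 3.15.

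Among the membrane-type MMPs, which are anchored at the cell surface, MMP14 was lower in all 6 conditions, whereas MMP15 and MMP24 depended on the condition. MMP14 (chromosome 14, 22836557 to 22849027, plus strand), the activator of pro-MMP2 whose promoter is shown above, was at 4725 to 4985 in Control and at 2057 to 2088 in shARID1A.2, 2617 to 2672 in shARID1A.4, 3543 to 3686 in shARID1B.2, 3176 to 3265 in shARID1B.3, 3841 to 3923 in shARID1A/B.2.3 and 2193 to 2262 in shARID1A/B.4.2. All silenced libraries were below all Control libraries. It was modulated in shARID1A.2 (-1.24, standard error 0.03, adjusted p = 2.93e-23) and shARID1A/B.4.2 (-1.13) and fell by 0.33 to 0.89 on the log2 scale in the others. MMP16 had log2 fold changes of -0.74, -1.31, -0.88, -1.63, -0.21 and -0.64. MMP15 was at 519 to 540 in Control and 460 to 516 in the 12 libraries labelled shARID1A or shARID1B. In shARID1A/B.2.3 it was at 835 to 895 and in shARID1A/B.4.2 at 1365 to 1463, so these 6 libraries stood above all others. Its log2 fold changes there were 0.72 (adjusted p = 1.17e-12) and 1.39 (adjusted p = 1.85e-18), against -0.16 (adjusted p = 0.00384) in shARID1A.4 and -0.14 (adjusted p = 0.0156) in shARID1B.3, the latter not passing with total reads (adjusted p = 0.0622).

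MMP24, a membrane-type MMP of neural tissue, was at 452 to 519 in Control, 951 to 995 in shARID1A.4, 929 to 997 in shARID1B.2 and 819 to 845 in shARID1A/B.2.3, with log2 fold changes of 1.0, 1.0 and 0.78. In shARID1A.2 it rose by 0.33. In shARID1B.3 (-0.15) and shARID1A/B.4.2 (-0.15) the change was small, and with total reads the first did not pass and the second had the opposite sign (0.04, adjusted p = 0.592). MMP24 overlaps MMP24OS on the opposite strand.

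The secreted MMPs had the most varied profiles. MMP1 (chromosome 11, 102789920 to 102798160, minus strand), the interstitial collagenase, had values of 377, 326 and 357 in Control, 110, 104 and 95.8 in shARID1A.2, 185, 226 and 215 in shARID1A.4 and 41.1, 46.3 and 52.5 in shARID1B.2. It was at 218, 221 and 251 in shARID1B.3, 705, 728 and 727 in shARID1A/B.2.3 and 245, 293 and 251 in shARID1A/B.4.2. Only shARID1A/B.2.3 was above Control, and the other 5 conditions were below it with no overlap. The log2 fold changes were -1.77, -0.76, -2.90 (standard error 0.10, adjusted p = 2.58e-18), -0.62, 1.03 (adjusted p = 1.11e-09) and -0.43.

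MMP10 and MMP12 lie beside MMP1 on chromosome 11, at 102770503 to 102780628 and 102862736 to 102875034, both on the minus strand. MMP10, a stromelysin, was at 20.1 to 30.8 in Control, 10.4 to 21 in shARID1B.2 and 40.8 to 46.6 in shARID1B.3, where its log2 fold changes were -0.82 and 0.71. It was at 19 to 30.9 in the other silenced libraries, where no change passed. MMP12, an elastase, had values of 3.52, 0 and 3.08 in Control, 22.4, 27.8 and 23.4 in shARID1A.2, 0.97, 2.38 and 1 in shARID1A.4 and 0.88, 0 and 0.89 in shARID1B.2. The values were 5.97, 8.55 and 4.32 in shARID1B.3, 0, 0 and 0.97 in shARID1A/B.2.3 and 12.8, 11.6 and 13.1 in shARID1A/B.4.2. MMP12 passed the filter only through silenced libraries in which it is higher, so its rises are not independent of that selection. In reads, Control held 6 over its 3 libraries, shARID1A.2 held 75 and shARID1A/B.4.2 held 43, which is 11.1 times the Control rate (exact 95% interval 4.85 to 31.1) and 5.63 times (2.39 to 16.2). These intervals cover counting error only. The summed endothelial markers, there mostly KDR, were also highest in these 2 conditions (33.2 to 58.1 against 3.4 to 14.1 in Control). The leukocyte markers were below Control in both, and the part of either list in the result was not tested. MMP12 was called modulated in these conditions and in shARID1B.3 (1.42, adjusted p = 0.0216), and the last call was lost without Control replicate 2 (0.72) and by DESeq2 (adjusted p = 0.0909). The neighbours on this stretch thus had different profiles: in shARID1A.2, MMP1 fell, MMP12 rose and MMP10 was at -0.18.

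MMP9, the other gelatinase, was close to 0 in Control, at 1.17, 0 and 1.03. It was at 16.6, 11.3 and 8.91 in shARID1A.2, 12.6, 17.8 and 9.98 in shARID1A.4, 4.38, 3.47 and 8 in shARID1B.2 and 6.97, 4.75 and 2.59 in shARID1B.3. The values were 1.01, 3.13 and 0.97 in shARID1A/B.2.3 and 4.55, 3.09 and 2.81 in shARID1A/B.4.2. Control held 2 reads over its libraries against 39 in shARID1A.2 and 38 in shARID1A.4, a ratio of 17.3 (exact 95% interval 4.47 to 148) and 18 (4.65 to 154). It was called modulated in all conditions but shARID1A/B.2.3 (5 reads, adjusted p = 0.235), and the call in shARID1A/B.4.2 was lost without Control replicate 2 (adjusted p = 0.0573) and by DESeq2 (adjusted p = 0.0854). MMP9 passed the filter only through silenced libraries in which it is higher, so its calls and intervals are not independent of that selection. It overlaps the antisense gene SLC12A5-AS1.

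MMP28 and MMP11 were lower. MMP28, epilysin, was at 213, 186 and 225 in Control, 195, 197 and 197 in shARID1A.2, 26.2, 33.3 and 29.9 in shARID1A.4 and 187, 193 and 140 in shARID1B.2. It was at 30.9, 6.65 and 21.6 in shARID1B.3, 101, 74 and 76.9 in shARID1A/B.2.3 and 138, 114 and 132 in shARID1A/B.4.2. The low conditions were shARID1A.4 (-2.76, standard error 0.29, adjusted p = 6.39e-09), shARID1B.3 (-3.56, adjusted p = 1.11e-10) and shARID1A/B.2.3 (-1.31). In shARID1A/B.4.2 (-0.69, adjusted p = 0.0381) the call was lost with total reads (adjusted p = 0.124) and without single libraries. MMP28 overlaps TAF15, which has a mean of 7294 on the opposite strand. MMP11, a stromelysin that is activated inside the cell, had log2 fold changes of -0.86, -1.42, -0.10, -0.75, -1.03 and -0.79. With total reads its small fall in shARID1B.2 had the opposite sign (0.03, adjusted p = 0.379).

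The sheddases ADAM10 and ADAM17 differed from each other. ADAM10, which cleaves Notch receptors and cadherins, had log2 fold changes of -0.41, -0.99, -0.01 (adjusted p = 0.689), -1.29 (standard error 0.03, adjusted p = 7.04e-22), -0.27 and -0.57. Its value was 4846 to 5039 in Control, 2445 to 2549 in shARID1A.4 and 1931 to 2120 in shARID1B.3, with no overlap between these groups. ADAM17, which releases tumour necrosis factor and ligands of the EGF receptor, had log2 fold changes of -0.41, 0.32, -0.07, 0.50, -0.25 and -0.59. It thus rose in shARID1A.4 (3883 to 4068) and shARID1B.3 (4391 to 4603) against 3152 to 3218 in Control. The -0.07 in shARID1B.2 had the opposite sign with total reads (0.07, adjusted p = 0.0364).

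ADAM12 (chromosome 10, 126012381 to 126388455, minus strand), an active protease of mesenchymal and tumour cells, was at 10918 to 11123 in Control and at 4287 to 7908 in the 18 silenced libraries. Every silenced library was below Control. It was modulated in shARID1A.2 (-1.34, standard error 0.03, adjusted p = 2.7e-23) and shARID1A/B.4.2 (-1.13) and had log2 fold changes of -0.96, -0.48, -0.57 and -0.77 in shARID1A.4, shARID1B.2, shARID1B.3 and shARID1A/B.2.3. ADAM9 fell by 0.33 to 0.80 on the log2 scale in all 6 conditions. ADAM15 fell in shARID1A.2 (-0.89), shARID1B.2 (-0.61) and shARID1A/B.4.2 (-0.54) and was at -0.01, 0.01 and 0.13 in the others, of which the last passed. ADAM19 fell in shARID1A.4 (-0.37), shARID1B.2 (-0.35) and shARID1B.3 (-0.50) and rose by 0.19 and 0.28 in the conditions labelled shARID1A/B. ADAM8, at 27 to 35.8 in Control, had log2 fold changes of -0.92 to -0.32, which passed in shARID1A.4, shARID1B.3, shARID1A/B.2.3 and shARID1A/B.4.2. With total reads the last of these did not pass (adjusted p = 0.101).

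ADAM22 and ADAM23 have no protease activity and serve as neuronal receptors, ADAM22 for LGI1. ADAM22 had log2 fold changes of 0.14, 0.33, -0.48, 0.45, -0.04 and 0.16, all but that of shARID1A/B.2.3 past the test. ADAM23 was modulated in shARID1A/B.4.2 (-1.22, adjusted p = 2.25e-19), where it had 897 to 981 against 2152 to 2257 in Control. It fell in shARID1A.2 (-0.82), shARID1A.4 (-0.55) and shARID1A/B.2.3 (-0.73), rose in shARID1B.3 (0.46) and was at 0.01 in shARID1B.2. ADAM23 was thus below Control in the 4 conditions in which ARID1B was low and not in the other 2, of which shARID1B.2 gave 0.15 (adjusted p = 0.0013) with total reads. The libraries labelled shARID1A were lower than those labelled shARID1B by a log2 difference of -0.93 (adjusted p = 9.33e-20).

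ADAM32, ADAM28 and ADAM33 are ADAMs of low level in these cells. ADAM32 was at 72.8, 106 and 78.1 in Control, 243, 249 and 251 in shARID1A.2, 220, 180 and 202 in shARID1A.4 and 170, 131 and 156 in shARID1B.2. The values were 125, 137 and 136 in shARID1B.3, 146, 128 and 170 in shARID1A/B.2.3 and 222, 219 and 214 in shARID1A/B.4.2. All silenced libraries were above all Control libraries, with log2 fold changes of 1.54 (standard error 0.12, adjusted p = 4.09e-11), 1.23, 0.83, 0.64, 0.79 and 1.36. ADAM28 had 0, 2.24 and 4.11 in Control, 10.8, 10.3 and 3.34 in shARID1A.2, 11.7, 10.7 and 9.98 in shARID1A.4 and 7, 4.63 and 12.4 in shARID1B.2. It had 7.96, 13.3 and 6.91 in shARID1B.3, 6.08, 8.34 and 5.84 in shARID1A/B.2.3 and 4.55, 3.86 and 8.43 in shARID1A/B.4.2. It was the 1 gene called modulated in all 6 conditions, but from 6 reads in Control against 19 to 31. ADAM28 passed the filter only through silenced libraries in which it is higher, so these calls are not independent of that selection. Its ratios to Control were 2.49 (exact 95% interval 0.955 to 7.61) in shARID1A/B.4.2 to 4.89 (2.01 to 14.3) in shARID1A.4. Without Control replicate 1, which had 0 reads, the calls in shARID1A.2, shARID1B.2, shARID1A/B.2.3 and shARID1A/B.4.2 were lost, with values of 1.03, 1.06, 0.92 and 0.64. ADAM33 was at 8.22, 11.2 and 8.22 in Control, 7.48, 6.18 and 5.57 in shARID1A.2, 10.7, 7.13 and 14 in shARID1A.4 and 5.25, 6.95 and 7.11 in shARID1B.2. It was at 1.99, 0 and 0 in shARID1B.3, 21.3, 20.8 and 20.4 in shARID1A/B.2.3 and 2.73, 3.09 and 5.62 in shARID1A/B.4.2. In reads, shARID1B.3 held 2 against 25 in Control (ratio 0.0676, exact 95% interval 0.00776 to 0.271), and shARID1A/B.2.3 held 62 (2.27, interval 1.4 to 3.76). Its call in shARID1A/B.4.2 was lost without Control replicate 2 (adjusted p = 0.0641) and by DESeq2 (adjusted p = 0.0521), and that in shARID1A/B.2.3 without Control replicate 1 (adjusted p = 0.0521).

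**Figure D4:**
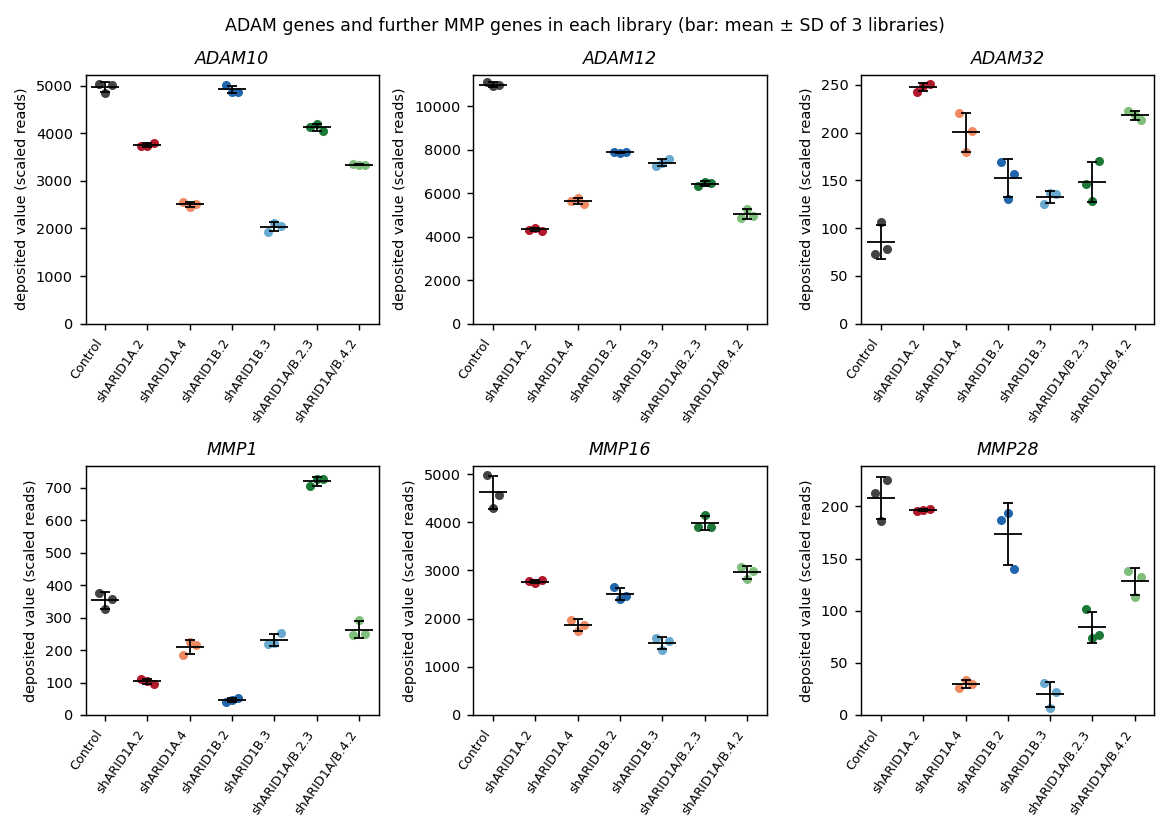
Deposited value (linear axes from 0) of ADAM10, ADAM12, ADAM32, MMP1, MMP16 and MMP28 in each library of the 7 conditions, with mean and SD of 3 libraries as bars. MMP1 exceeds Control only in shARID1A/B.2.3 (705 to 728), and ADAM32 exceeds it in all 6 silenced conditions.

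Of the 15 ADAMTS genes tested, 6, 6, 3, 4, 5 and 3 were modulated lower in the order of conditions above, where 10.7%, 12%, 5.03%, 6.53%, 9.01% and 8.07% of all genes were. ADAMTS9 (chromosome 3, 64515654 to 64688000, minus strand), which cleaves versican and aggrecan and was the ADAMTS gene of highest level per kilobase in Control, had values of 10877, 10931 and 10849 in Control, 3979, 4071 and 3937 in shARID1A.2 and 1329, 1167 and 1228 in shARID1A.4. It was at 4384, 4091 and 4282 in shARID1B.2, 3174, 3479 and 3260 in shARID1B.3, 3852, 4028 and 3930 in shARID1A/B.2.3 and 6043, 5940 and 6025 in shARID1A/B.4.2. Each silenced library was below Control, and shARID1A.4 was lowest. The log2 fold changes were -1.45, -3.13 (standard error 0.04, adjusted p = 1.42e-27), -1.36, -1.72, -1.47 and -0.86. The antisense gene ADAMTS9-AS2 overlaps it with a mean of 40.2.

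Of the procollagen N-proteinases, which trim fibrillar procollagens, ADAMTS2 was at 2319, 2372 and 2356 in Control, 616, 573 and 621 in shARID1A.2, 616, 566 and 598 in shARID1A.4 and 2517, 2605 and 2658 in shARID1B.2. It was at 823, 937 and 826 in shARID1B.3, 1414, 1662 and 1535 in shARID1A/B.2.3 and 1168, 1309 and 1214 in shARID1A/B.4.2. The libraries labelled shARID1A were the lowest 6 of all 21. The log2 fold changes were -1.96 (standard error 0.06, adjusted p = 2.55e-20), -1.98, 0.14 (adjusted p = 0.0275), -1.45, -0.61 and -0.93, and the rise in shARID1B.2 was lost without single libraries. ADAMTS14 was at 161, 194 and 159 in Control, 49.9, 49.4 and 54.6 in shARID1A.2, 77.7, 58.3 and 64.9 in shARID1A.4 and 231, 226 and 247 in shARID1B.2. It was at 108, 84.6 and 85.5 in shARID1B.3, 85, 83.4 and 70 in shARID1A/B.2.3 and 48.3, 40.9 and 42.1 in shARID1A/B.4.2. Only shARID1B.2 was above Control (0.46, adjusted p = 0.00394), and the other changes were -1.72, -1.35, -0.88, -1.10 and -1.94. ADAMTS3, the third of these enzymes, was modulated in shARID1A/B.2.3 alone (-1.36, adjusted p = 1.48e-22), at 1772 to 1880 against 4626 to 4732 in Control.

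ADAMTS1 and ADAMTS5, which cleave versican and aggrecan, are neighbours on chromosome 21, at 26835747 to 26845409 and 26917912 to 26966513. ADAMTS1 was at 1435 to 1502 in Control, 441 to 495 in shARID1A.2, 559 to 626 in shARID1B.2 and 633 to 665 in shARID1A/B.4.2, with log2 fold changes of -1.67 (adjusted p = 4.3e-21), -1.33 and -1.17. It was at 0.03 and -0.09, which did not pass, in shARID1A.4 and shARID1B.3, and rose by 0.30 in shARID1A/B.2.3. ADAMTS5 was at 75.2, 91.8 and 112 in Control, 49.9, 53.6 and 44.5 in shARID1A.2, 17.5, 14.3 and 22 in shARID1A.4 and 72.7, 53.2 and 57.8 in shARID1B.2. The values were 41.8, 43.7 and 48.4 in shARID1B.3, 24.3, 22.9 and 26.3 in shARID1A/B.2.3 and 60.1, 67.2 and 79.6 in shARID1A/B.4.2, of which the last group overlaps Control. Its log2 fold changes were -0.89, -2.31 (standard error 0.18, adjusted p = 2.8e-11), -0.59, -1.03, -1.87 and -0.42 (adjusted p = 0.0467), and the last call was lost with total reads (-0.23, adjusted p = 0.258). The conditions in which ADAMTS5 was lowest, shARID1A.4 and shARID1A/B.2.3, are among those in which ADAMTS1 did not fall.

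ADAMTS15, a further versican-cleaving enzyme, was at 68.1, 60.4 and 70.9 in Control, 20.8, 28.8 and 18.9 in shARID1A.2, 17.5, 21.4 and 4.99 in shARID1A.4 and 30.6, 27.8 and 28.5 in shARID1B.2. It was at 13.9, 20.9 and 12.9 in shARID1B.3, 28.4, 30.2 and 36 in shARID1A/B.2.3 and 65.6, 79.6 and 64.6 in shARID1A/B.4.2. It was modulated lower in all conditions but shARID1A/B.4.2 (0.07, adjusted p = 0.859), by -1.52, -2.31 (standard error 0.32, adjusted p = 5e-07), -1.17, -2.02 and -1.06. ADAMTS4, an aggrecan-cleaving enzyme, fell in shARID1A.4 (-0.54), shARID1B.3 (-0.89) and shARID1A/B.2.3 (-0.15). It was at -0.18 (adjusted p = 0.0043) in shARID1A/B.4.2, where total reads gave 0.01 (adjusted p = 0.89).

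ADAMTS16 and ADAMTS17 were higher. ADAMTS16 was at 3.52, 5.6 and 2.05 in Control, 51.5, 37.1 and 37.9 in shARID1A.2, 48.6, 33.3 and 61.9 in shARID1A.4 and 9.63, 17.4 and 16 in shARID1B.2. It was at 7.96, 6.65 and 11.2 in shARID1B.3, 8.1, 7.29 and 7.78 in shARID1A/B.2.3 and 30.1, 39.4 and 28.1 in shARID1A/B.4.2. All silenced libraries were above Control, which held 10 reads. ADAMTS16 passed the filter only through silenced libraries in which it is higher, so its rises are not independent of that selection. The ratio to Control was 11.7 (exact 95% interval 6.15 to 24.9) in shARID1A.2, 13.2 (6.99 to 28.2) in shARID1A.4 and 8.96 (4.7 to 19.2) in shARID1A/B.4.2, and 2.1 (0.962 to 4.95) in shARID1A/B.2.3. In shARID1A/B.2.3 the fitted rise of 0.95 (adjusted p = 0.00854) was lost by edgeR (adjusted p = 0.0643) and DESeq2 (adjusted p = 0.111), and in shARID1B.3 that of 1.07 by DESeq2 (adjusted p = 0.0609). ADAMTS17, which acts on the fibrillin microfibrils of the matrix, rose in all 6 conditions, from 621 to 698 in Control to 842 to 1332, with log2 fold changes of 0.99, 0.74, 0.89, 0.41, 0.94 and 0.72.

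**Figure D5:**
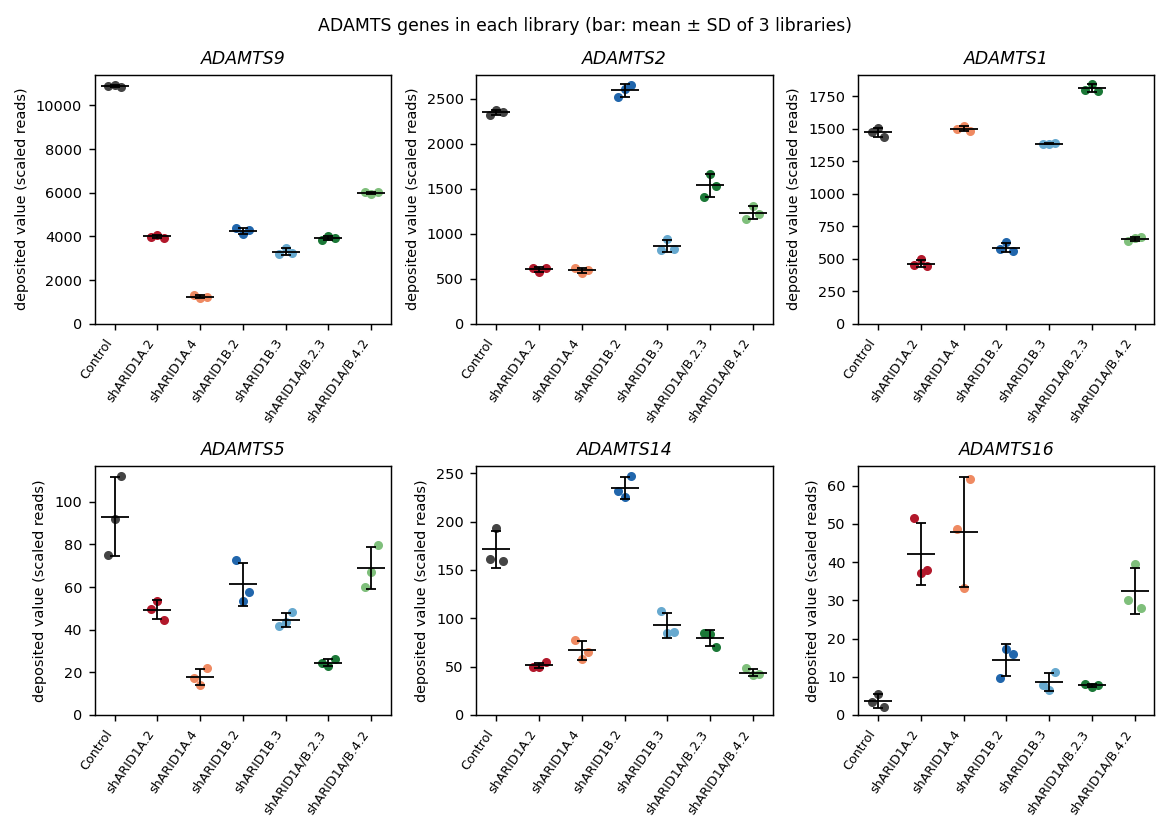
Deposited value (linear axes from 0) of 6 ADAMTS genes in each library of the 7 conditions, with mean and SD of 3 libraries as bars. ADAMTS9 is below Control in every silenced library, ADAMTS2 is lowest in the libraries labelled shARID1A (566 to 621), and ADAMTS1 falls in shARID1A.2, shARID1B.2 and shARID1A/B.4.2.

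The ADAMTSL genes, which encode matrix proteins without a protease domain, were of low level. ADAMTSL3 was at 11.8, 20.1 and 21.6 in Control, 17.4, 22.7 and 20.1 in shARID1A.2, 4.86, 7.13 and 7.98 in shARID1A.4 and 22.8, 23.1 and 19.6 in shARID1B.2. It was at 24.9, 44.7 and 44 in shARID1B.3, 10.1, 13.6 and 14.6 in shARID1A/B.2.3 and 41.9, 52.5 and 54.3 in shARID1A/B.4.2. It fell in shARID1A.4 (-1.28, adjusted p = 0.000173) and rose in shARID1B.3 (1.04, adjusted p = 0.0017) and shARID1A/B.4.2 (1.46, adjusted p = 3.78e-05). ADAMTSL5 was at 2.35, 3.36 and 3.08 in Control, 25.8, 16.5 and 23.4 in shARID1A.2, 6.8, 7.13 and 2.99 in shARID1A.4 and 7, 9.26 and 11.6 in shARID1B.2. It was at 5.97, 6.65 and 7.77 in shARID1B.3, 3.04, 2.08 and 4.86 in shARID1A/B.2.3 and 19.1, 10.8 and 16.9 in shARID1A/B.4.2. ADAMTSL5 passed the filter only through silenced libraries in which it is higher, so its rises are not independent of that selection. The ratio to Control, with 8 reads there, was 7.52 (exact 95% interval 3.61 to 18.1) in shARID1A.2, 5.21 (2.46 to 12.7) in shARID1A/B.4.2 and 3.15 (1.4 to 7.97) in shARID1B.2. The first 2 are the conditions in which the summed endothelial markers, there mostly KDR, were highest, as for MMP12, and their part in the result was not tested. ADAMTSL2 was at 117 to 120 in Control and 206 to 256 in shARID1A/B.2.3 (0.96, adjusted p = 5.13e-07), and fell by 0.62 in shARID1B.3. ADAMTSL1, at 6.72 to 8.22 in Control, had no change that passed.

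The shRNAs or combinations of each label were compared directly to see how far the response depended on the shRNA. Between shARID1A.2 and shARID1A.4, 13 of the 50 genes were modulated, 9 higher in shARID1A.2 and 4 lower (23.4% of all genes tested, 13.9% higher and 9.54% lower). Between shARID1B.2 and shARID1B.3 the count was 14, with 9 higher in shARID1B.2 and 5 lower (13.5%, 8.23% higher and 5.25% lower), and between shARID1A/B.2.3 and shARID1A/B.4.2 it was 16, with 5 higher in shARID1A/B.2.3 and 11 lower (21.8%, 9.49% higher and 12.4% lower). TIMP2 differed by 2.60 (shARID1A.2 higher, adjusted p = 4.69e-30) within the label shARID1A and by -2.26 (shARID1A/B.2.3 lower, adjusted p = 6.43e-29) within shARID1A/B. TIMP3 differed by -1.62, 1.31 and 1.24 within the 3 labels. MMP28 was higher by 2.69 in shARID1A.2 than in shARID1A.4 and by 3.29 in shARID1B.2 than in shARID1B.3. ADAMTS1 was lower in shARID1A.2 (-1.70) and shARID1B.2 (-1.24) than in the other condition of the label, and higher in shARID1A/B.2.3 than in shARID1A/B.4.2 (1.47).

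The labels were then compared with each other as the mean of their 2 conditions. The libraries labelled shARID1A, in which both transcripts were low, were set against those labelled shARID1B, in which ARID1A was low: 8 genes were modulated, 4 higher and 4 lower (5.82% of all genes tested, 2.95% higher and 2.87% lower). TIMP2 (-1.61, adjusted p = 2.24e-28), ADAMTS2 (-1.32), ADAMTS14 (-1.32) and ADAMTSL3 (-1.22) were lower, and ADAMTS16 (1.92), ADAM33 (1.48), MMP12 (1.24) and MMP9 (1.24) were higher. Against the libraries labelled shARID1A/B, in which ARID1B was low, 8 genes were modulated, 2 higher and 6 lower (3.42%, 1.36% higher and 2.06% lower). MMP1 (-1.56), ADAMTS15 (-1.42), ADAMTS2 (-1.20, adjusted p = 3.81e-18), MMP15 (-1.18, adjusted p = 2.92e-19), ADAMTS9 (-1.13) and ADAMTSL3 (-1.06) were lower, and MMP9 (2.01) and ADAMTS16 (1.40) were higher. MMP9 was highest in the libraries labelled shARID1A and MMP12 in shARID1A.2, and both genes have means near the limit of the filter. They passed it only with these libraries, so their differences between labels are not independent of that selection.

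A mean over 2 conditions can be set by 1 of them, so the 6 libraries of a label were also examined for overlap. Of the 50 genes, 10 had no overlap between the 6 libraries labelled shARID1A and the 6 labelled shARID1B (14.3% of all genes tested), and 9 had none against those labelled shARID1A/B (7.91%). Both modulated and without overlap were 4 in each comparison. These were ADAMTS2, ADAMTS14, ADAMTS16 and MMP9 in the first, and ADAMTS2, MMP1, MMP9 and MMP15 in the second. MMP9 passed the filter only with the libraries labelled shARID1A, so its place here is not independent of that selection. The share of all genes meeting both conditions was not computed, so no result about the family is read from these counts. The difference in TIMP2 did not separate the labels, since shARID1A.2 (12598 to 13038) and shARID1B.3 (12285 to 12647) overlapped.

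Genes around the family were taken from 3 lists. Of 22 regulators of metalloproteinases, such as proprotein convertases, the tetraspanin partners of ADAM10 and the plasminogen activator system, 21 were tested and 9, 6, 4, 7, 3 and 4 were modulated in the order of conditions above (24.5%, 21.3%, 11.6%, 11.7%, 16% and 18% of all genes), with medians of -0.34, -0.41, -0.27, -0.60, 0.13 and 0.15. FURIN, the convertase that activates membrane-type MMPs and ADAMs, rose in all 6 conditions, by 1.28, 1.33, 0.67, 0.28, 1.54 and 1.41. PLAUR, the urokinase receptor, fell in all 6 (-2.00 in shARID1A.4 to -0.64 in shARID1B.3). TSPAN15, which directs ADAM10 to cadherins, fell in 5 (-1.67 in shARID1B.3) and was at 0.15 in shARID1A/B.4.2. The protease inhibitor A2M rose in shARID1B.3 (1.99) and fell in shARID1A.2 (-1.5) and shARID1A/B.2.3 (-1.15).

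Of 14 other extracellular metalloproteinases and relatives, 10 were tested, and 2, 5, 1, 3, 4 and 1 were modulated (the same shares of all genes apply, and the counts in shARID1A.2, shARID1B.2 and shARID1A/B.4.2 were below them), with medians of -0.34, -0.84, -0.09, -0.65, -0.68 and -0.25. PAPPA2 had -2.47 in shARID1A.4 and -2.5 in shARID1B.3. PAPLN, a relative of the ADAMTS ancillary domains, had -2.08 in shARID1A.4 and -2.57 in shARID1A/B.2.3, the conditions with the lowest TIMP2. PCOLCE, which enhances procollagen C-proteinase, had -1.56 in shARID1A.2 and -1.69 in shARID1A/B.4.2, and MME, neprilysin, -1.75 in shARID1A.4.

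Of 27 substrates, 21 were tested, and 10, 6, 6, 6, 6 and 9 were modulated against 24.5%, 21.3%, 11.6%, 11.7%, 16% and 18% of all genes, with medians of -0.90, -0.52, -0.66, -0.45, 0.17 and -0.70. VCAN, the versican core protein cleaved by ADAMTS1, ADAMTS4, ADAMTS5, ADAMTS9 and ADAMTS15, had log2 fold changes of -2.46, -2.86, -0.90, -1.07, -1.86 and -2.90. SDC1, a syndecan shed by MMPs and ADAMs, fell in all 6 conditions (-2.08 in shARID1A.2 to -0.68 in shARID1B.3). LGI1, the ligand of ADAM22, fell by 2.34 in shARID1A.2, 1.67 in shARID1A/B.4.2, 1.63 in shARID1B.2 and 0.69 in shARID1A.4, was also modulated lower in shARID1A/B.2.3 (adjusted p = 8.19e-08) and was at -0.27 (adjusted p = 0.0549) in shARID1B.3. ACAN, the aggrecan core protein, fell by 2.87 in shARID1A.4, by 1.25 in shARID1A/B.2.3 and by 1.40 in shARID1A/B.4.2.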

How the data were processed

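The 21 RNA-Seq libraries (7 conditions, 3 libraries each) were grouped by their labels. The signal deposited for each gene is its read number scaled by a single size factor of the library. The submitters' processing notes name STAR 2.5.3a, RSEM 1.3.0, DESeq2 1.26.0 and GRCh38 with no role. Reads were recovered as whole numbers within 0.1 read in 100.0% of cases (largest deviation 0.0066), and 1 read was worth 0.7725 to 1.1892. The libraries are stranded, and the strand setting of the counting is not given in the sources used here. The authors' 3 tables of comparisons, with fold changes and p-values, were not used.

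Log2 of the deposited value plus 1 was fitted with limma 3.58.1 (R 4.3.3) with an intensity trend over all 21 libraries, on the 18615 genes with a mean of 5 or more, with Benjamini-Hochberg adjustment over all of them. Fold changes on this scale understate the change of low genes. The cutoffs were a log2 fold change of 1 and an adjusted p-value of 0.05. The fit was tested on simulated reads of all 21 libraries (18615 genes), with genes changed in shARID1A.2 only. It recovered 200 of 200 changed genes with 4 others called. The changes were planted in genes of high mean and were larger than the cutoff. The recovery therefore does not describe genes with few reads or changes near the cutoff. For genes with few reads, reads summed over the 3 libraries were compared with exact conditional 95% intervals.

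Alternatives were pseudocounts of 0.5 and 5, no filter on low values, a mean of 50 or more, scaling to total reads, edgeR 4.0.16 (quasi-likelihood, TMM) and DESeq2 1.42.0 (Wald test) on the recovered reads, only the libraries compared, 4 groups in place of 7 conditions, the replicate number as a block, and each library left out in turn. Replicate libraries differed by more than sampling noise in 21 pairs (chi-square per degree of freedom 1.55 to 4.26). Values in every library are given for ARID1A, ARID1B, the TIMP genes and the members modulated in at least 3 of the 6 silenced conditions, at most 16 by mean absolute log2 fold change. Genes of fixed roles in the family were named whatever their change, as were up to 4 genes a list. MMP10, MMP11, MMP28, ADAM32, ADAMTS4 and ADAMTS17 were also described as family members, and MMP21 and ADAM20 for their place at the threshold. The members and lists were chosen with earlier results of these data known, and 1 gene of the adrenergic marker list is not reported here. All 50 genes were matched to GENCODE 29 without the version of the identifier, and exon lengths and coordinates are from it. Python 3.11.15 with pandas 2.3.3 and matplotlib 3.10.9 was used.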

Additional observations from a re-analysis of the deposited data

Results flagged for a closer look

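The conditions that share a label differed from each other in part of the 50 genes, by the limma test of the difference itself. Between shARID1A.2 and shARID1A.4 these were 13 genes, a share near the 23.4% of all genes tested. There were 14 between shARID1B.2 and shARID1B.3 (13.5% of all genes) and 16 between shARID1A/B.2.3 and shARID1A/B.4.2 (21.8%). Some of these genes lay above the Control mean in all libraries of 1 condition and below it in those of the other. Each such difference was called modulated. TIMP1 differed by -1.52 between shARID1A.2 and shARID1A.4. Between shARID1B.2 and shARID1B.3, ADAMTS2 differed by 1.59, ADAMTS14 by 1.34, MMP24 by 1.15, TIMP1 by -1.22, MMP10 by -1.52 and ADAMTSL2 by 1.04. For MMP10, the libraries of shARID1B.2 (10.42 to 21.01) overlapped those of Control (20.15 to 30.81). Between shARID1A/B.2.3 and shARID1A/B.4.2, MMP1 differed by 1.45, ADAMTS1 by 1.47, ADAMTS19 by -1.36, ADAMTS13 by -1.10 and ADAM33 by 2.23. The cause of these differences was not tested. Conditions of 3 libraries are too small for a test of single outlying libraries.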

How the results depend on the processing

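The count of modulated genes stayed within 1.5 times its value in every comparison with a pseudocount of 0.5, without a filter on low values, with total reads, by edgeR, by DESeq2, with only the libraries compared and with the replicate block. A pseudocount of 5 gave 7 in shARID1B.2, 9 in shARID1B.3 and 4 for the libraries labelled shARID1A against those labelled shARID1B, and 4 groups gave 5 for the last. With a mean of 50 or more, which leaves 13675 genes, the counts were 11 in shARID1A.2, 5 in shARID1B.2, 7 in shARID1B.3, 10 in shARID1A/B.4.2, 9 between shARID1A/B.2.3 and shARID1A/B.4.2, and 3 and 4 for the libraries labelled shARID1A against those labelled shARID1B and shARID1A/B. This limit also leaves fewer members of the family, so these counts have a smaller base than the main ones. The shares of all genes at this limit are not given here. Without single libraries the counts ranged over 17 to 19 in shARID1A.2, 16 to 18 in shARID1A.4, 9 to 12 in shARID1B.2, 12 to 15 in shARID1B.3, 9 to 14 in shARID1A/B.2.3 and 15 to 17 in shARID1A/B.4.2. For the differences within labels they were 12 to 14, 13 to 16 and 16 to 17, and between labels 8 to 9 and 7 to 9.

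Replicate numbers did not pair the libraries: 63 pairs of same-numbered libraries had correlations of -0.196 to 0.143 and 6 of 21 libraries correlated best with their own number. With the replicate block no call of the counts or of the genes with values in every library changed, for example 17 in shARID1A.2 and 16 in shARID1A.4. Calls that changed elsewhere were mostly of genes with few reads, where depth limits the precision.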

Other observations

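Over the 50 genes, the conditions were also compared by the median absolute log2 difference of their means, which is a description without a test. The closest were shARID1A.2 and shARID1A/B.4.2 (0.397, with 8 genes differing by over 1) and shARID1A.4 and shARID1B.3 (0.426, with 12), which carry different labels. The 2 conditions of a label stood at 0.556 (shARID1A), 0.668 (shARID1B) and 0.658 (shARID1A/B), and the farthest were Control and shARID1A.2 (0.813, with 17). Control was closest to shARID1B.2 (0.486, with 11). Over all genes tested, the same median against Control was lowest in shARID1B.3 (0.326) and shARID1B.2 (0.344) and highest in shARID1A.2 (0.515). Within the labels it was 0.52 (shARID1A), 0.372 (shARID1B) and 0.502 (shARID1A/B). Pairs of silenced conditions with different labels were not compared over all genes, so their order is not shown to be particular to the family.

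ADAMTS19 was at 3650 to 3771 in Control, 1721 to 1825 in shARID1A.4 and 5492 to 5758 in shARID1A/B.4.2. ADAMTS10, which acts on fibrillin microfibrils, was at 97.5 to 111 in shARID1A/B.4.2 against 248 to 276 in Control. ADAMTS13, the protease of von Willebrand factor, was at 204 to 235 in shARID1A/B.2.3 against 355 to 428 in Control and at 574 to 640 in shARID1A.2. MMP23B held 7 reads over the libraries of shARID1A/B.2.3 against 21 in Control (ratio 0.305, exact 95% interval 0.109 to 0.744), and MMP23B has a near-identical copy, MMP23A, with which it may share reads. These genes were named after their values were seen.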
